A study of Neurospora crassa with 8 samples.

Results

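In mycelia of the filamentous fungus *Neurospora crassa*, 152 of 9733 counted genes (1.56%) had about as many reads on the antisense strand as on the sense strand in the dark and at every light time. A gene was included when it had at least 50 reads on each strand in each of 4 strand-specific libraries and an antisense to sense ratio of read counts between 0.25 and 4 in each of them. NCU02265 was left out beforehand. The genes were chosen by their read counts in this light time course, so their levels and ratios in these libraries are descriptions and carry no test. The names of the annotated neighbors, the exon structure and 3 further libraries from constant light were not used for the choice.

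The study catalogued coding and noncoding RNAs of *Neurospora*. The strand-specific libraries were made from poly(A)+ RNA of *wt* (strain 74-OR23-1VA) mycelia from liquid culture, which had been in darkness for 24 h and then received 0, 30, 60 or 120 min of light (100 μE). Further libraries came from *wt*, Δ*wc1* (Δwc1::hyg) and Δ*wc2* (Δwc2::hyg) mycelia kept in light for 48 h. Each condition had 1 library, so no difference below has a replicate check. Intervals are exact 95% intervals that compare 2 libraries and cover counting error only.

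Antisense reads of a gene can come from an independent noncoding transcript or from a neighboring gene on the opposite strand whose transcript runs into it, as happens where genes converge and their 3′ ends overlap. In *Neurospora* the best known natural antisense RNA is *qrf*, which is transcribed across the clock gene *frq* and takes part in the control of the clock and of DNA methylation at its promoter. Where both strands of a locus are transcribed, the RNAs can pair, and double-stranded RNA is the substrate of the fungal silencing machinery. None of 18 light and clock genes, a list without NCU02265, and none of 8 RNA silencing genes examined was balanced, since none had 50 reads on both strands in every library. *wc-1*, the blue light receptor gene, had 201 to 791 sense reads per library, but only 0 to 2 antisense reads.

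The sense counts added up to 9725970 to 21422091 reads per library and the antisense counts to 186821 to 443659 reads, which is 1.87 to 2.25% of the reads on genes. Balanced genes held 20.3 to 24.6% of all antisense reads, but 0.513 to 0.611% of the sense reads. In the 134 genes whose sense count reached 10000 in every library, antisense reads were a median of 0.0446 to 0.106% of the sense reads, far below the lowest ratio of 0.25 required here. *hex-1*, which encodes the Woronin body protein of hyphae, was abundant in every library (24935 to 40470 sense reads), as the label mycelia implies. The light-induced photoreceptor gene *vvd* went from 273 sense reads in the dark library to 51223 in the 30 min library. The conidiation gene *con-6*, which also responds to light, had 79 and 66330 sense reads in these libraries. Whether conidiating cells contributed to the balanced genes was not tested.

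Few genes passed the read minimum on the antisense strand. Of 6905 genes with at least 50 sense reads in every library and 657 with at least 50 antisense reads, 446 met both minimums, and 34.1% of these were balanced. NCU02265 was among the 446 and was not analysed here. Of the other 293, 200 lay below 0.25 in all 4 libraries, 5 lay above 4 in all 4, and 88 were inside the limits in some libraries only. Just inside the lower limit were NCU08047, NCU08130 and NCU00893, with lowest ratios of 0.256, 0.267 and 0.268. Just outside it were NCU02413, NCU06750 and NCU00966, with lowest ratios of 0.247, 0.246 and 0.241. At the upper limit, NCU08345, NCU09421 and NCU04407 reached 3.67, 3.49 and 3.44, while NCU04509, NCU06353 and NCU02220 reached 4.37, 4.75 and 4.83 and were left out. At the read minimum, NCU03372, NCU05649 and NCU07197 had a lowest count of 50, while NCU06878, NCU02737 and NCU09293 had lowest counts of 48, 47 and 46.

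The counts of the balanced genes were similar on both strands by the choice of the ratio. In the dark library, the median gene had 203.5 reads in sense and 176.5 in antisense, before normalization for depth. The medians were 297.5 and 254 after 30 min of light, 412 and 336.5 after 60 min, and 227.5 and 175.5 after 120 min. The median antisense to sense ratio of the dark library was 0.76, and those of the 30, 60 and 120 min libraries were 0.86, 0.90 and 0.88. Antisense exceeded sense in 57, 61, 65 and 61 genes in the same order. Sense was above antisense in all 4 libraries in 62 genes, antisense was above sense in all 4 in 32, and the order changed or was tied in at least 1 library in 58. The highest ratio of a gene over the time course was a median of 1.75 times its lowest, with a range of 1.05 to 6.20. It was under 1.5 times in 47 genes and over 4 times in 3 (NCU08712, NCU02006 and NCU11212).

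**Figure D1:**
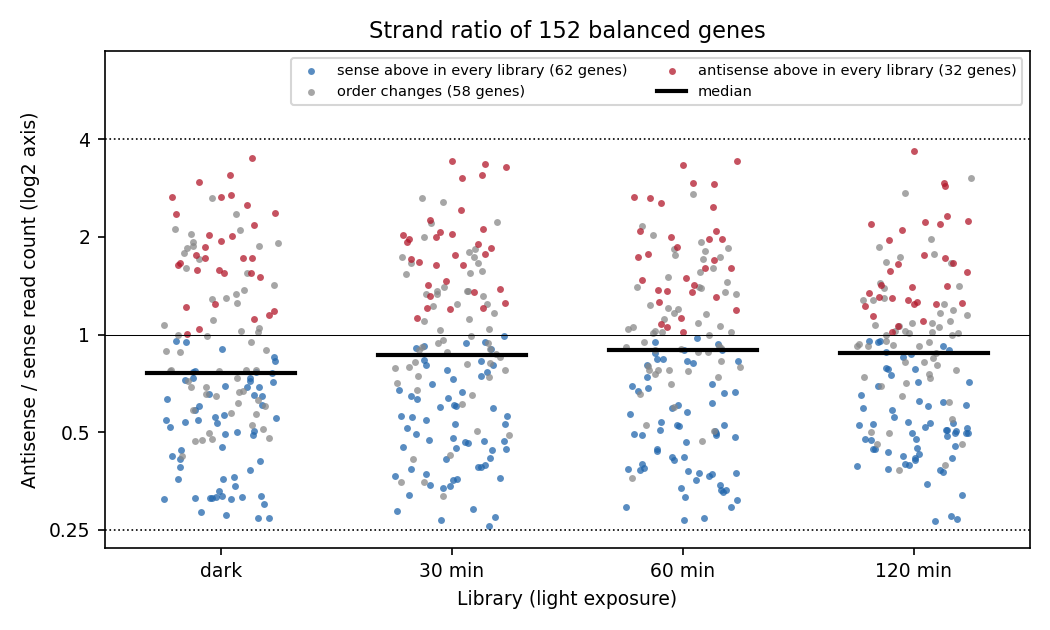
Antisense to sense ratio of read counts (log2 axis) of the 152 balanced genes in the dark library and at 30, 60 and 120 min of light, 1 point per gene and library. Colors mark the 62 genes with sense above antisense in every library, the 32 with antisense above, and the 58 whose order changed, the bars are the medians (0.76, 0.86, 0.90 and 0.88), and the dotted lines are the limits of 0.25 and 4 that chose the genes.

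The ratios nearest to 1 in every library were those of NCU00476, NCU05251, NCU08594, NCU07119 and NCU09462. The series of reads given here and below are raw counts. The 30 and 60 min libraries were the deepest (factors of 0.852 and 0.702, beside 1.41 and 1.44), so higher counts there partly follow depth. In the order of light exposure (dark, 30, 60 and 120 min, as for all counts given below), NCU00476 had 494, 913, 1294 and 511 sense and 518, 825, 1174 and 608 antisense reads. Its ratios were therefore 1.05, 0.90, 0.91 and 1.19. NCU07119 had more reads in the light on both strands, with 391, 1041, 1085 and 452 sense and 299, 870, 1032 and 356 antisense reads. Sense stayed above antisense in all 4 libraries of NCU07119, by little.

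The genes with the most reads on both strands were NCU03634, NCU08130 and NCU11258. NCU03634 had 6687, 8740, 9694 and 5731 sense and 3702, 4915, 8051 and 4096 antisense reads. NCU08130 had 7528, 10262, 13578 and 5389 sense and 2384, 2971, 3693 and 1437 antisense reads, so that its ratio lay between 0.27 and 0.32. NCU11258 had 2503, 3222, 4304 and 2372 sense and 2959, 4025, 5129 and 3702 antisense reads, with antisense above sense each time. NCU11258 overlaps a histone gene, *hH2A*, which had 17108, 23809, 28905 and 18375 sense reads.

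Only 8 balanced genes (5.41% of the matched ones) have a gene symbol in RefSeq, compared with 12.1% of all matched genes. Their counts are given before normalization for depth. *vma-7* (NCU04387), which encodes a subunit of the vacuolar ATPase, had 1057, 1852, 2148 and 924 sense and 332, 687, 943 and 357 antisense reads. *gh18-5* (NCU04554), a glycosyl hydrolase gene of the family that includes chitinases, had 1340, 1398, 2900 and 1313 sense and 1493, 2471, 3787 and 1858 antisense reads. Sense was thus above antisense in every library of *vma-7* and below it in every library of *gh18-5*, by the smallest margin in the dark.

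*oxa-2* (NCU06778), of a family of mitochondrial inner membrane insertases, had 387, 472, 772 and 370 sense and 123, 208, 252 and 168 antisense reads. *mdm12* (NCU02067), which in yeast encodes a subunit of the tether between the endoplasmic reticulum and mitochondria, had 198, 384, 556 and 223 sense and 110, 159, 292 and 120 antisense reads. *cen-T* (NCU02161), a kinetochore gene, had 251, 392, 436 and 274 sense and 223, 278, 452 and 257 antisense reads. Antisense was the lesser strand throughout in *oxa-2* and *mdm12*, and in *cen-T* it exceeded sense at 60 min only.

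*hsp30* (NCU09364), a small heat shock protein gene, had 167, 218, 332 and 175 sense reads, below its antisense count in every library (264, 310, 417 and 274). *rpd* (NCU01270) had 70, 129, 131 and 60 sense and 54, 55, 118 and 65 antisense reads. *pan-2* (NCU10048), a locus of pantothenate synthesis, had 73, 135, 176 and 107 sense and 94, 346, 205 and 88 antisense reads. The antisense reads of *pan-2* peaked at 30 min, where they were 2.22-fold (1.76 to 2.82) above the dark library after normalization, while its sense reads were at 1.11-fold (0.832 to 1.5).

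To compare light times, counts were normalized by the total reads of each library. On the sense strand the median log2 ratio to the dark library was -0.29 at 30 min, -0.11 at 60 min and 0.10 at 120 min, beside -0.16, -0.07 and 0.03 for all 6905 genes tested. On the antisense strand it was -0.22, -0.06 and 0.18, beside -0.19, -0.03 and 0.16 for all 657 genes tested. Sense was lowest at 30 min in 82 balanced genes (53.9%), beside 43.0% of all genes tested, and antisense in 80 (52.6%), beside 49.9%. With median-of-ratios factors, tried after seeing the data, these shares were 42.8% beside 29.9% and 37.5% beside 34.6%. With median-of-ratios factors, the median over all genes at 30 min was -0.01 on the sense strand and that of the balanced genes was -0.14, so 0.15 of the lower level at 30 min depended on the scaling. The antisense median of the balanced genes at 60 min was 0.01 with these factors, of the opposite sign. Scaled by the reads counted on genes, the balanced medians at 60 min were -0.23 in sense and -0.18 in antisense. Those of all genes tested were then -0.19 and -0.15. In the sense counts, 12.1% of reads were unassigned at 60 min, against 21.3%, 19.2% and 20.1% in the dark, 30 and 120 min libraries.

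Most balanced genes stayed within 2-fold of the dark library on both strands (104 of 152). Past 2-fold in either direction at any time were 27 genes in sense, beside 15.5% of all genes tested, and 26 in antisense, beside 18.7%. On the sense strand, 6, 7 and 5 genes were over 2-fold higher at 30, 60 and 120 min, beside 4.68%, 5.05% and 3.01% of all genes tested. Over 2-fold lower were 14, 4 and 1, beside 6.23%, 4.29% and 1.64%. With median-of-ratios factors the counts at 30 min were 7 higher and 9 lower, and the shares of all genes were not calculated with these factors. On the antisense strand, 5, 9 and 2 genes were over 2-fold higher, beside 5.78%, 7.15% and 5.94% of the 657 genes tested, and 8, 6 and 4 were over 2-fold lower, beside 4.87%, 3.5% and 1.83%. As shares of the balanced genes, sense was higher in 3.95%, 4.61% and 3.29%, and lower at 30 min in 9.21%. Antisense was higher at 120 min in 1.32%, against 5.94% of all genes tested. In the 293 genes with both strands that were not balanced, sense was lower at 30 min in 5.46% and antisense higher at 120 min in 10.2%. The limits on the ratio can exclude genes in which 1 strand changed far more than the other. Nothing is therefore read from the shares of light time calls given here and below.

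Some of these calls lie within counting error. Where the whole interval had to lie past 2-fold, sense was higher in 3, 2 and 1 genes at 30, 60 and 120 min, beside 3.84%, 4% and 2.01% of all genes tested, and lower in 5, 2 and 0, beside 3.78%, 2.84% and 0.999%. Antisense was higher in 2, 7 and 0, beside 3.5%, 4.87% and 2.13%, and lower in 3, 3 and 0, beside 1.98%, 1.37% and 0.457%.

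At any light time, 13 genes were over 2-fold higher in sense, beside 7.28% of all genes tested, and 12 in antisense, beside 11.4%. NCU07331 was in both, beside 2.47% of the 446 genes with reads on both strands. Over 2-fold lower were 15 genes in sense, beside 8.28%, and 14 in antisense, beside 7.31%, and NCU00027 and NCU00751 were in both, beside 1.35% of the 446. NCU03372 and NCU03506 were over 2-fold higher in sense and over 2-fold lower in antisense, at different light times, beside 0.897%. No gene was over 2-fold lower in sense and higher in antisense, beside 1.35%.

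**Figure D2:**
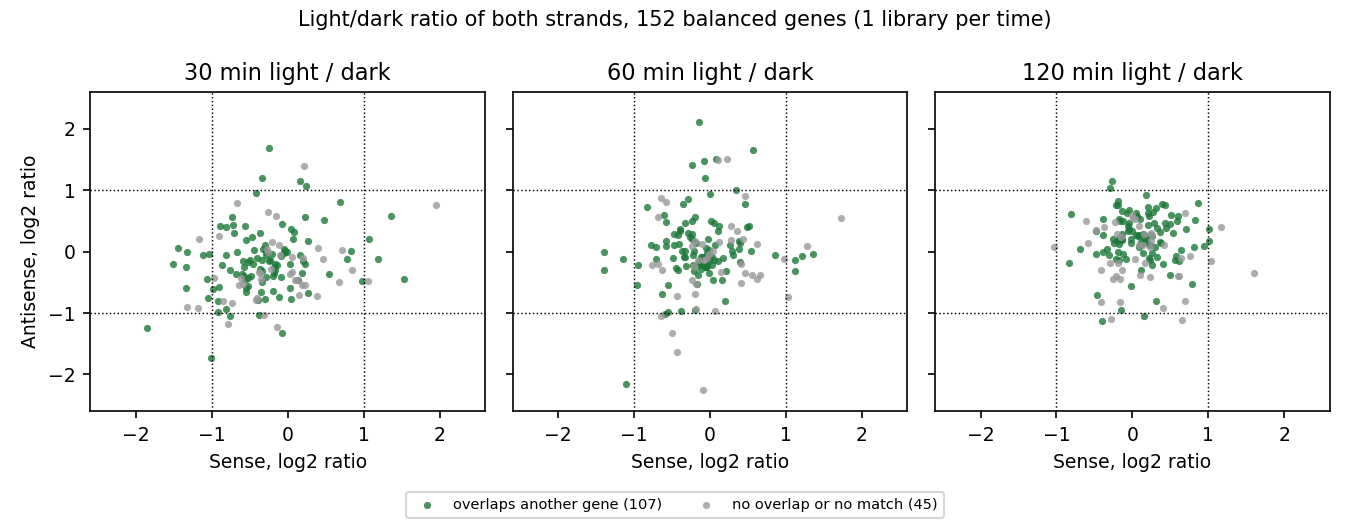
Log2 ratio of normalized reads to the dark library on the sense strand (x axis) and on the antisense strand (y axis) at 30, 60 and 120 min, 1 point per balanced gene. The dotted lines mark 2-fold, green points are the 107 genes that overlap another annotated gene, and 104 of the 152 genes stay inside the lines on both strands at all 3 times.

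Sense reads were highest above the dark library in NCU03506, NCU04721 and NCU08712. NCU03506 had 282, 1813, 1884 and 438 sense and 528, 1482, 1560 and 241 antisense reads. Antisense was thus the major strand in the dark and the minor strand in all 3 light libraries. Its sense reads were 3.87-fold (3.42 to 4.41) above the dark library at 30 min, and its antisense reads 1.69-fold (1.53 to 1.87). At 120 min its sense reads were still at 1.58-fold (1.35 to 1.84), whereas its antisense reads were at 0.463-fold (0.396 to 0.540).

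NCU04721 had 171, 371, 699 and 512 sense and 305, 306, 367 and 236 antisense reads. Its sense level was highest at 120 min, at 3.04-fold (2.55 to 3.63) of the dark library, and its antisense level was below the dark library in all light libraries (0.605, 0.598 and 0.785-fold). The antisense to sense ratio accordingly went from 1.78 in the dark to 0.82, 0.53 and 0.46. NCU08712 had 107, 513, 499 and 94 sense and 205, 251, 395 and 285 antisense reads. Sense was the major strand of NCU08712 at 30 and 60 min only, and its ratio had the widest range of the balanced genes (0.49 to 3.03).

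Sense reads were furthest below the dark library in NCU00027, NCU01298 and NCU06987. NCU00027 had 146, 67, 112 and 82 sense and 107, 75, 175 and 162 antisense reads. Both strands were low at 30 min, at 0.277-fold (0.204 to 0.372) for sense and 0.422-fold (0.310 to 0.573) for antisense, and only antisense was above the dark library at 120 min (1.54-fold, 1.20 to 1.98). NCU01298 had 98, 57, 89 and 54 sense and 88, 127, 164 and 76 antisense reads. NCU06987 had 318, 208, 243 and 195 sense and 99, 138, 199 and 101 antisense reads. In both of these genes the antisense strand stayed within the counting error of the dark library at every light time, while sense was at 0.351-fold (0.248 to 0.491) in NCU01298 at 30 min and at 0.379-fold (0.320 to 0.450) in NCU06987 at 60 min.

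Antisense reads were highest above the dark library in NCU02006, NCU08825 and NCU02539. NCU02006 had 185, 317, 1605 and 274 antisense and 324, 520, 590 and 334 sense reads. The antisense level at 60 min was 4.31-fold (3.70 to 5.04) of the dark library, and sense was within counting error of the dark library at every light time (0.967, 0.904 and 1.05-fold). NCU08825 had 152, 812, 850 and 264 antisense and 220, 307, 420 and 190 sense reads, so antisense became the major strand in all light libraries. Its antisense level at 30 min was 3.22-fold (2.70 to 3.85) of the dark library. NCU02539 had 133, 463, 843 and 228 antisense and 277, 542, 827 and 496 sense reads. In NCU02539 both strands were higher in light, by 3.15-fold (2.62 to 3.81) for antisense and 1.48-fold (1.29 to 1.70) for sense at 60 min.

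Antisense reads were furthest below the dark library in NCU11212, NCU00751 and NCU04196. NCU11212 had 668, 473, 282 and 350 antisense and 319, 478, 601 and 414 sense reads. Its antisense level at 60 min was 0.210-fold (0.182 to 0.241) of the dark library, while sense was at 0.936-fold (0.815 to 1.08). NCU00751 had 234, 117, 106 and 106 antisense and 340, 281, 319 and 255 sense reads, and both strands were below the dark library in all light libraries. NCU04196 had 301, 290, 195 and 170 antisense and 97, 120, 144 and 154 sense reads, so that its ratio went from 3.10 in the dark to 2.42, 1.35 and 1.10.

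The ratio of the strands needs no normalization between libraries. It was over 2-fold higher than in the dark in 18, 19 and 6 genes at 30, 60 and 120 min, beside 11.4%, 12.1% and 9.19% of the 446 genes with both strands, and over 2-fold lower in 10, 15 and 9, beside 8.07%, 10.1% and 4.93%. At any time it was past 2-fold in 47 genes, beside 32.3%, with 27 higher, beside 18.8%, and 20 lower, beside 13.7%. The limits on the ratio bound these changes, so nothing is read from the counts. Relative to the dark ratio, the ratio was most increased in NCU02006 (4.76-fold at 60 min, 3.87 to 5.87), NCU08825 (3.83-fold at 30 min, 2.97 to 4.93) and NCU07060 (3.13-fold at 60 min, 2.55 to 3.84). It was most decreased in NCU11212 (0.224-fold at 60 min, 0.184 to 0.273), NCU08712 (0.255-fold at 30 min, 0.191 to 0.340) and NCU04721 (0.258-fold at 120 min, 0.201 to 0.332).

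The rule did not use the position of the genes. Of the 148 balanced genes found in the RefSeq annotation of NC12, 107 (72.3%) overlap another annotated gene, 23 have their nearest gene within 500 bp and 18 have it farther away. Among all 9215 matched genes, 23.7% overlap another gene. Overlap was also frequent among the 290 matched genes that passed the read minimums without being balanced (76.9%). The median overlap was 571 bp in the balanced genes and 334 bp in the others. Genes with a single exon made up 27.6% of the balanced genes, 14.0% of the genes with both strands that were not balanced and 20.8% of all genes. No test was made of these differences.

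**Figure D3:**
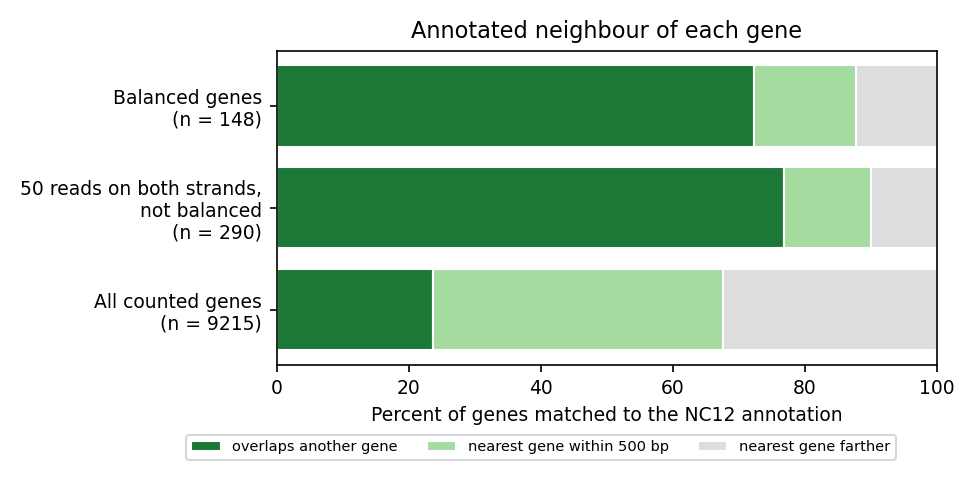
Percent of matched genes that overlap another annotated gene (dark green), that have their nearest gene within 500 bp (light green) or farther away (gray), for 9215 counted genes, 290 genes with 50 reads on both strands that were not balanced, and 148 balanced genes. Overlap is at 72.3% in the balanced genes, 76.9% in the others with both strands and 23.7% in all genes.

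The sense counts of the overlapping gene were compared with the antisense counts of the balanced gene for the 103 balanced genes whose overlapping gene was counted. The table used gives no strand, so whether an overlapping pair is convergent, and whether the antisense reads belong to the transcript of the neighbor, was not tested. The sense count of the neighbor was at least as high as the antisense count of the balanced gene in every library in 95 of 103 cases. In the dark the antisense count was a median of 19.9% of it. Sense reads far outnumber antisense reads on genes as a whole, and the median antisense count in the dark was 197. The share over other pairs of genes was not calculated, so nothing is read from this count. Over the 4 libraries, the highest ratio of antisense to neighbor sense was a median of 1.31 times the lowest (quartiles 1.20 and 1.48). For the ratio of antisense to the gene's own sense reads it was 1.68 times (1.41 and 2.23). The first was the smaller in 83 of 103 genes. In the dark the neighbor had a median of 907 sense reads and the balanced gene 258. Counting error therefore widens the second ratio more. On opposite strands, a fragment in the overlap can count as antisense of the balanced gene and as sense of its neighbor. The first ratio can range less for that reason too. No such ratios were calculated for other pairs of genes, so nothing is read from the difference.

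The next pairs hold genes with the highest antisense ratios to the dark library, and their neighbors were named after their values were seen. The antisense reads and the neighbor's sense reads may be counted from the same fragments, so a joint rise cannot be taken as independent. The neighbor of NCU02006, NCU02005, had 984, 1629, 7632 and 898 sense reads and was at 3.85-fold (3.6 to 4.12) at 60 min, where the antisense reads of NCU02006 were at 4.31-fold. At 120 min NCU02005 was at 0.93-fold (0.85 to 1.01) and the antisense reads of NCU02006 at 1.5-fold (1.24 to 1.82), so that the antisense reads were 18.8%, 19.5%, 21.0% and 30.5% of the sense reads of NCU02005. The neighbor of NCU08825, NCU10777, had 655, 2659, 3693 and 1160 sense reads, and the antisense reads of NCU08825 were 23.2%, 30.5%, 23.0% and 22.8% of them. After normalization, NCU08825 antisense and NCU10777 sense were both over 2-fold above the dark library at 30 and 60 min. The same held for NCU07060 and NCU02539 with their neighbors. At 60 min *pan-2* antisense was at 1.08-fold and its neighbor at 1.44-fold.

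NCU07060 had 207, 789, 1104 and 328 antisense reads and 336, 439, 573 and 322 sense reads, and its neighbor NCU07061 had 2198, 8264, 10746 and 2858 sense reads. The antisense reads were 9.4%, 9.5%, 10.3% and 11.5% of the sense reads of NCU07061. For NCU02539, the neighbor NCU02540 had 907, 3052, 5387 and 1183 sense reads, and the antisense reads were 14.7%, 15.2%, 15.6% and 19.3% of them. This share ranged over 1.22 times in NCU07060 and 1.31 times in NCU02539. The ratio to the own sense reads ranged over 3.13 and 2.22 times. For *pan-2*, the neighbor NCU10049 had 74, 334, 214 and 90 sense reads, close to the antisense count of *pan-2* in every library and at times below it.

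**Figure D4:**
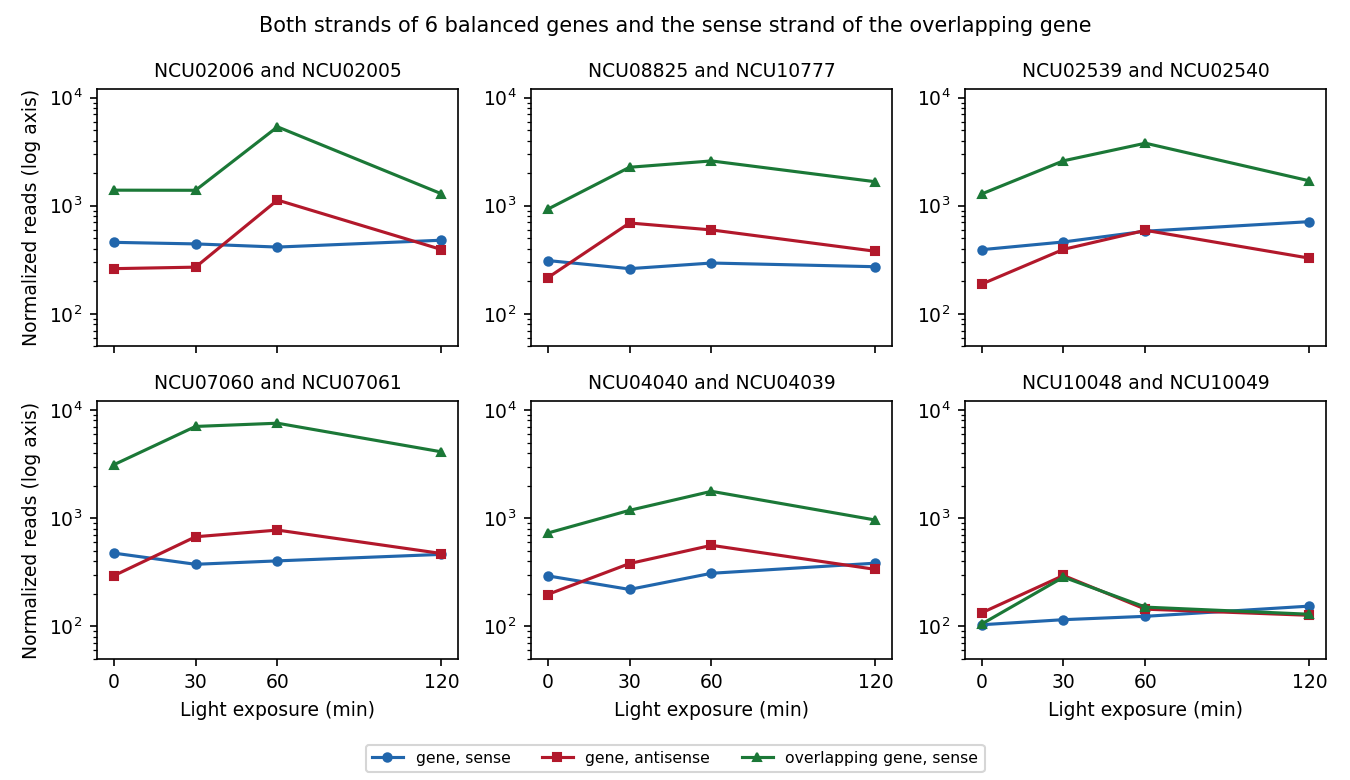
Normalized reads (log axis) against light exposure for the sense strand (blue) and antisense strand (red) of 6 balanced genes and for the sense strand of the overlapping gene (green), 1 library per time. Red and green counts may hold the same fragments where the genes overlap, so they cannot be taken as independent. In NCU02006 the antisense strand and NCU02005 peak together at 60 min, at 4.31-fold and 3.85-fold of the dark library, while the sense strand of NCU02006 stays at 0.904-fold; in NCU10048 (*pan-2*) antisense and neighbor reads nearly coincide.

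Of these 103 neighbors, 15 have a gene symbol, among them genes of respiration, vacuolar acidification and amino acid synthesis. NCU00159, NCU00419 and NCU00671 overlap *nuo6.6*, *nuo14.8* and *nuo9.5*, which encode subunits of mitochondrial complex I. *nuo14.8* had 2747, 3503, 4562 and 2551 sense reads and NCU00419 had 743, 932, 1220 and 746 antisense and 276, 307, 416 and 423 sense reads. NCU03394 and NCU08034 overlap the vacuolar ATPase genes *vma-6* and *vma-8*. *vma-6* had 2373, 4981, 5124 and 2447 sense reads and NCU03394 had 503, 1078, 1088 and 680 antisense and 482, 821, 1012 and 668 sense reads. Antisense was thus the major strand in every library of NCU00419, and by a small margin in every library of NCU03394.

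*gh18-5* overlaps *ubi::crp-6*, which encodes ubiquitin fused to a ribosomal protein and had 18374, 30811, 41670 and 20371 sense reads. NCU09788 overlaps the adenine synthesis gene *ad-8*, which had 1882, 3536, 5457 and 1895 sense reads. The antisense reads of NCU09788 (172, 381, 481 and 180) ranged over 1.22 times relative to *ad-8* and over 3.55 times relative to its own sense reads (249, 280, 398 and 470). The antisense share of the neighbor ranged under 1.5 times for 12 of the 15 neighbors with a symbol, beside 79 of all 103. It ranged over 1.65 times in NCU00893, which overlaps *met-6*, and over 1.63 times in NCU03607, which overlaps *ilv-2*. NCU02678 overlaps the arginine synthesis gene *arg-3*. The antisense reads of NCU02678 (123, 279, 571 and 229) ranged over 1.99 times relative to the sense reads of *arg-3* (1192, 3286, 4574 and 1353).

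In 8 of 103 cases the neighbor had fewer sense reads than the antisense count in at least 1 library. For NCU00751, the neighbor NCU11095 had 29, 20, 21 and 9 sense reads, far fewer than the 234, 117, 106 and 106 antisense reads of NCU00751. For NCU08618, NCU08619 had 20, 24, 39 and 28 sense reads beside 443, 292, 509 and 526 antisense reads. Both neighbors had fewer sense reads than the balanced gene had antisense reads in every library. NCU11095 itself had 1009, 608, 571 and 271 antisense reads, and NCU08619 had 7, 3, 8 and 7. The other cases were NCU00215, NCU02254, NCU03204, NCU06266, NCU08688 and *pan-2*.

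In 2 pairs the overlapping genes were both balanced. NCU06646 had 251, 221, 260 and 216 sense and 130, 124, 180 and 128 antisense reads, and its partner NCU06647 had 344, 325, 458 and 310 sense and 172, 150, 171 and 166 antisense reads. Sense was above antisense in both genes in every library. NCU00214 had 294, 449, 434 and 207 sense and 229, 227, 384 and 219 antisense reads, and NCU00215 had 531, 484, 847 and 464 sense and 220, 313, 416 and 246 antisense reads. The antisense reads of a gene in such a pair may be counted from the same fragments as the sense reads of its partner, so the members of a pair are not independent.

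The 18 balanced genes with no annotated gene within 500 bp are those whose antisense reads have no close annotated neighbor. All 18 are on the list of antisense transcripts of the study, as are 18 of the 23 with a gene within 500 bp, but only 22 of the 107 that overlap another gene. The study filtered overlapping and close genes out of its list by its own annotation and built it on these libraries, so the list is not independent evidence. In all, 58 balanced genes (38.2%) are listed, beside 36.9% of the genes with both strands that were not balanced and 8.26% of all counted genes. The listed genes made up 12 of the 14 genes with antisense over 2-fold lower in light and 3 of the 12 with antisense over 2-fold higher. The listed share of such genes among all genes tested was not calculated, so nothing is read from these counts.

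In these 18 genes the median ratio was 1.82 in the dark and 1.16, 1.02 and 1.26 in the light libraries, against 0.69, 0.83, 0.89 and 0.82 in the 107 genes that overlap another gene. The ratio was over 2-fold lower than in the dark at some light time in 8 of the 18 and higher in 1, and it was lower in 9 and higher in 20 of the 107. The limits on the ratio bound these changes too. Genes with a higher dark ratio have more room to fall within the limits, and those with a lower one have more room to rise. The choice of genes can therefore shape this difference, so nothing is read from these counts. No test was made of this difference. NCU09421 had 67, 231, 212 and 59 sense and 234, 278, 361 and 169 antisense reads, so that antisense dominated most in the dark and at 120 min. NCU02934 had 134, 354, 281 and 118 sense and 274, 323, 284 and 153 antisense reads. NCU08433 was the gene with the higher ratio, with 127, 94, 159 and 82 sense and 60, 115, 178 and 84 antisense reads.

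Reads spliced on the antisense strand were listed by the study for 6 balanced genes, beside 7 of the 293 genes with both strands that were not balanced and 26 of all 9733 genes. The 6 were *cen-T*, NCU03534, NCU06998, NCU07395, NCU08130 and NCU11212. NCU03534 had 466, 1386, 1843 and 307 sense and 360, 487, 667 and 392 antisense reads, with antisense above sense at 120 min only. NCU06998 had 367, 412, 827 and 452 sense and 567, 685, 825 and 527 antisense reads. NCU07395 had 468, 790, 818 and 420 sense and 738, 947, 918 and 588 antisense reads. Antisense was the major strand throughout in NCU07395, and in NCU06998 the strands differed by 2 reads at 60 min. The number of spliced reads was not analysed here.

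The constant light libraries address how the balanced genes stand when the white collar genes, which encode the blue light receptor complex, are deleted. These libraries do not separate strands, so the values are sums of both. *wc-1* had 332 reads in *wt*, 1290 in the library labelled Δ*wc1* and 252 in that labelled Δ*wc2*. In the library labelled Δ*wc1*, 3 of the *wc-1* reads were on the first exon line and 1287 on the second, compared with 88 and 244 in *wt*. *wc-2* had 605, 922 and 141 reads. *vvd*, which depends on the white collar complex, had 12684, 384 and 136 reads. The hyphal and conidiation markers differed between these libraries as well. The conidial hydrophobin gene *eas* had 159799, 2035 and 3840 reads, *con-10* 1435, 67 and 102, *con-6* 168, 61 and 47, and *hex-1* 47899, 18668 and 25342. Whether cell composition contributed to the ratios below was not tested, and fewer cells of a type and less RNA per cell cannot be told apart. Of the balanced genes, 151 had at least 50 reads in each library.

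Over 2-fold above *wt* were 27 of 151 genes in the library labelled Δ*wc1*, beside 13.9% of 7124 genes tested, and 19 in that labelled Δ*wc2*, beside 9.36%. Over 2-fold below were 4 and 7, beside 5.29% and 4.96%. With median-of-ratios factors the counts for the library labelled Δ*wc1* were 15 above and 9 below, and the shares of all genes were not calculated with these factors. The median log2 ratio to *wt* was 0.41 and 0.36 in the balanced genes and 0.26 and 0.21 in all genes, which became 0.18 and 0.18 beside 0.02 and 0.04 with these factors. Both libraries share the *wt* library. Above 2-fold in both were 14 genes, beside 6.4%, and below in both 4, beside 3.38%.

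The genes furthest above *wt* in both were NCU03535, NCU04040 and NCU02363. NCU03535, which overlaps the sulfur regulator gene *cys-3*, had 292 reads in *wt*, 1042 in the library labelled Δ*wc1* and 1152 in that labelled Δ*wc2*, which is 4.17-fold (3.66 to 4.76) and 4.65-fold (4.09 to 5.31). NCU04040 had 211, 1060 and 704 reads, or 5.87-fold (5.06 to 6.83) and 3.94-fold (3.37 to 4.61). In the light time course NCU04040 had 139, 446, 798 and 234 antisense and 207, 257, 440 and 267 sense reads. Antisense was the strand of NCU04040 that was higher at 30 and 60 min. NCU02363 had 212, 657 and 565 reads.

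The genes furthest below *wt* in both were NCU02042, NCU09521 and NCU04196. NCU02042 had 952, 95 and 91 reads, which is 0.117-fold (0.0934 to 0.144) and 0.113-fold (0.0899 to 0.140). In the time course it had 96, 102, 136 and 79 sense and 179, 204, 144 and 130 antisense reads. NCU09521 had 595, 87 and 130 reads and NCU04196 had 1152, 302 and 287. All 3 lack an overlapping gene, and the strand that differed from *wt* cannot be told from these libraries. NCU09969, the gene under the minimum, had 98, 14 and 440 reads, so it was below *wt* in the library labelled Δ*wc1* and above it in that labelled Δ*wc2*. *gh18-5* was above 2-fold in both (log2 ratios of 1.37 and 1.35), *mdm12* in the library labelled Δ*wc1* only (1.31 and 0.77) and *hsp30* in that labelled Δ*wc2* only (0.90 and 1.16). The differences between these libraries were not tested.

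**Figure D5:**
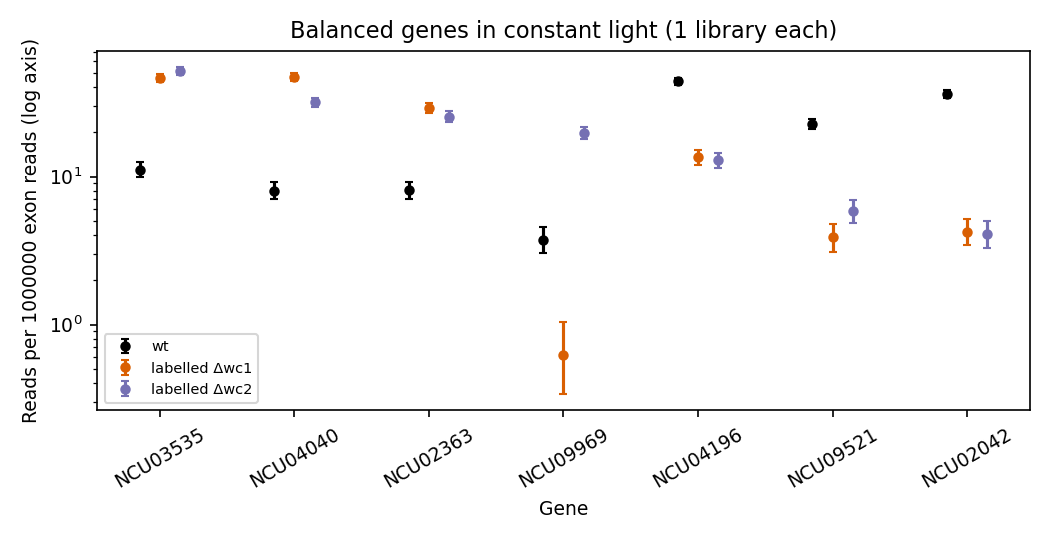
Reads per 1000000 exon reads (log axis) of 7 balanced genes in the constant light libraries of *wt* and those labelled Δ*wc1* and Δ*wc2*, both strands summed, with exact 95% counting intervals. NCU03535, NCU04040 and NCU02363 are above *wt* in both, NCU02042, NCU09521 and NCU04196 are below it in both, and NCU09969 (98, 14 and 440 reads) lies on opposite sides.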

How the data were processed

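Strand-specific reads of 4 *wt* libraries were mapped to NC10 with Bowtie 2.1.0 and counted with HTSeq. The values deposited by the authors are raw counts per gene, in separate sense and antisense files. The study normalized such counts by total count, but the files hold them before that step. TopHat2 2.0.13 also stands in the submitters' processing notes. The deposited constant light values are counts per exon, which were summed per gene. How those reads were mapped is not given in the sources used here. The lincRNA values with polysome signal (score on a natural log scale, deposited by the authors) were not used.

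Counts were multiplied by factors of 1.41, 0.852, 0.702 and 1.44 (0, 30, 60 and 120 min) from the total reads stated in the methods, and constant light counts were scaled by summed exon counts. Normalized counts past 2-fold were called, with 50 reads on the strand in every library. Ratios have exact Clopper-Pearson 95% intervals, and ratios of strand ratios exact conditional intervals. No p-value was calculated. Overlaps and symbols came from the RefSeq table of NC12, which gives no strand. The lists of antisense transcripts and junctions of the study gave membership only. The members and lists were chosen with earlier results of these data known.

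Named were the 3 genes furthest in each direction per strand, ratio and constant light, the 5 nearest to a ratio of 1, the 3 at each limit, the 3 with the most reads, and those with symbols or antisense junctions. The overlapping neighbors, pairs, exceptions and further genes without a neighbor were named after their values were seen. Protein products, promoters and sequences were not analysed here. The intervals and calls were tested on simulated counts with counting error only, so variation between libraries beyond it was not covered. TMM factors came from edgeR 4.0.16 in R 4.3.3, and other steps from Python 3.11.15, numpy 2.4.6, pandas 2.3.3, scipy 1.17.1 and matplotlib 3.10.9. Alternatives concerned the rule's limits, the scaling, the pseudocount, the interval and overlapping genes.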

Additional observations from a re-analysis of the deposited data

How the results depend on the processing

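No paired analysis was possible because each condition had 1 library. A minimum of 100 reads left 96 genes and a minimum of 20 gave 226. Ratios between 0.5 and 2 left 65, limits of 8-fold in either direction gave 233, and 45 were left without those that overlap another gene. Not applying the rule to 1 library gave 158 to 192. Where the interval also had to lie past 2-fold, sense was higher in 3, 2 and 1 genes and lower in 5, 2 and 0 at 30, 60 and 120 min, and antisense was higher in 2, 7 and 0 and lower in 3, 3 and 0. Among the 41 matched genes that overlap no gene, an alternative chosen after seeing the data, sense was higher in 2, 3 and 3 and lower in 3, 0 and 1, antisense was higher in 1, 2 and 0 and lower in 3, 4 and 2, and the ratio was higher in 4, 5 and 2 and lower in 6, 9 and 6. These counts are smaller partly because fewer genes were counted. Shares over all other genes that overlap no gene were not calculated, so nothing is read from these counts. With median-of-ratios or TMM factors, sense was lower in 9 genes at 30 min and higher in 3 at 120 min, and antisense was lower in 5 at 30 min. With scaling by the reads on genes, sense was higher in 4 at 60 min and in 3 at 120 min, and antisense was lower in 11 at 60 min. With median-of-ratios factors, 15 genes were above and 9 below *wt* in the constant light library labelled Δ*wc1*. Shares of all genes past 2-fold were not calculated with these other scalings. A pseudocount of 1 moved no count of genes by over 1.5 times, and the 12 values of named genes stayed on their side of 2-fold under the scalings and the pseudocount. With 50 reads on a strand, counting error alone is wide, as the intervals show, and library differences beyond it were not measured.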
